A study of Mus musculus with 48 samples.

Results

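Antibody variable (V) segments were described across 48 RNA-seq libraries of mouse thoracic mammary gland. A member is a row annotated as an immunoglobulin V gene that reached at least 1 TPM (a gene's share of all transcripts, scaled to the same total in every library) in at least 3 libraries. That rule chose 160 of the 218 V gene rows, in a table of 55487 genes of which 20209 were tested. The members are 80 of 113 heavy chain segments, 77 of 100 kappa segments and all 3 lambda segments (the 2 remaining V gene rows carry no locus in their names). The minimum level that chose them is no finding. The members nearest to it were Ighv1-31, Igkv5-45 and Igkv4-62, whose highest value but 2 was 1.08, 1.11 and 1.13 TPM. The nearest rows left out were Ighv1-63, Igkv1-99 and Ighv2-4 at 0.97, 0.96 and 0.94 TPM. Of the 58 rows left out, 3 were at 0 in every library and 26 reached 1 TPM in some library.

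All mice carried MMTV-rtTA, a doxycycline-dependent activator under the mouse mammary tumour virus promoter, which acts mainly in mammary epithelium, and a responder behind a tet operator. The responder was Esr1 (estrogen receptor alpha) in the MMTV-rtTA/tet-op-Esr1 model and CYP19A1 (aromatase, the enzyme that makes estrogens) in the MMTV-rtTA/tet-op-CYP19A1 model. Each model had 8 groups of 3 libraries. Glands without induction were taken at 12, 18 and 24 months of age, glands induced for 1 week at 12 and 18 months, glands induced for 6 or 12 months at 24 months, and glands induced for 18 months at 30 months. No uninduced gland of 30 months was measured, and no group lacks a responder, so drug and transgene cannot be told apart. The titles number biological replicates, but no label states that the 3 libraries of a group come from different mice, and p-values then measure library-to-library spread only, part of which may be technical. The strain is not given in the sources used here. Germline V alleles other than the reference could change which segment a read is assigned to, so a difference in level between the models and a difference in alleles cannot be told apart. The Esr1 transcript was above the highest uninduced library of its model in 2 of 15 libraries labelled as induced for Esr1, and human CYP19A1 was not analysed here, so induction is taken from the labels alone.

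Each developing B cell builds 1 heavy and 1 light chain gene by joining a V segment to downstream segments, and its descendants keep that choice. A plasma cell, the antibody-secreting end stage, holds far more immunoglobulin RNA than a resting B cell. A V segment with a large share of the V RNA can come from many cells of few clones or from many clones that use it. It can also come from a few cells rich in antibody RNA. Levels per segment do not tell these apart. In whole tissue, the number of cells and the RNA per cell cannot be told apart. In the mammary gland, plasma cells are best known for the IgA they supply to milk. B-1 cells, an innate-like lineage, are known for recurrent V pairs and for IgM.

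The sequences of the recurrent segments are shown first, since the results name them. They are germline coding sequences from the GENCODE M21 transcripts (mouse build mm10), read 5′ to 3′. Capitals run from the last in-frame cysteine codon, just before the antigen-contact loop CDR3, to the 3′ end, where the V segment is joined. Ighv11-2 (chr12:114048241-114048812, minus strand) and Igkv14-126 (chr6:67896172-67896642, plus strand) are given by their last 300 bases of 353, as the heavy and kappa leaders found together most often.
Ighv11-2: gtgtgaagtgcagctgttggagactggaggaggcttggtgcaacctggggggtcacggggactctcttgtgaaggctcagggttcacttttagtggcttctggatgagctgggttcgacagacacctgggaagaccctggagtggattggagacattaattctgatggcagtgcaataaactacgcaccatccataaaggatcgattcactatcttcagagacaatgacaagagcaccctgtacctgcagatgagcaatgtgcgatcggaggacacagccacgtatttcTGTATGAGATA
Igkv14-126: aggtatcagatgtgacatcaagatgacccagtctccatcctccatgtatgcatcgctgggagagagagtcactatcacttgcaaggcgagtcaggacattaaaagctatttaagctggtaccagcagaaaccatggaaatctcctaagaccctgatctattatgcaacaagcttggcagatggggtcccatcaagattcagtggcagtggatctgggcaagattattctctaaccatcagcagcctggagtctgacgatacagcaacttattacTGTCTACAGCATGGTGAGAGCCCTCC

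The last 60 bases follow for the partners in 3 further recurrent pairs (Ighv1-26 with Igkv2-137, Ighv1-39 with Igkv17-121, Ighv3-6 with Igkv12-41). They also follow for Ighv12-3 and Igkv4-91, a pair known from B-1 cells, and for Iglv1 and Ighv2-2, which passed between the models. Iglv2, which did not pass, is shown as the nearest relative of Iglv1.
Ighv1-26: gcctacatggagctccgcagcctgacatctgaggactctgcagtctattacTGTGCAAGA
Igkv2-137: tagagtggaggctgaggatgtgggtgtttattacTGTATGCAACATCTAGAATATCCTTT
Ighv1-39: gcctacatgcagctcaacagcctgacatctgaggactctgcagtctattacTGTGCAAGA
Igkv17-121: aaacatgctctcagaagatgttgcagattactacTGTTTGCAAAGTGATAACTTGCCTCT
Ighv3-6: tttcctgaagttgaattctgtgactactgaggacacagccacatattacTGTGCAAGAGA
Igkv12-41: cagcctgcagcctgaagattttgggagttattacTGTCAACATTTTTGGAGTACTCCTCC
Ighv12-3: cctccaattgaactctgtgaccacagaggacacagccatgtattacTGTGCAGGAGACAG
Igkv4-91: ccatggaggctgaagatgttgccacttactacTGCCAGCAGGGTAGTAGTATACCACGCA
Iglv1: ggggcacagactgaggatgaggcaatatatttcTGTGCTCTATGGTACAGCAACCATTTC
Iglv2: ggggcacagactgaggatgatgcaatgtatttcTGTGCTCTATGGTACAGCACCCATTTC
Ighv2-2: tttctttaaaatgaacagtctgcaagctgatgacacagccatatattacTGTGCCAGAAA

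The capitals show the germline bases from the cysteine codon on, and those after that codon are the segment's part of CDR3. Ighv1-26 and Ighv1-39 end 9 bases from the cysteine codon on, Ighv12-3 at 14, and Igkv14-126, Igkv2-137, Igkv17-121 and Igkv12-41 at 26. Ighv1-26 and Ighv1-39 share the same capitals, and their germline sequences differ only before them.

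Coding sequences of the 160 members ran from 338 to 394 bases, with a median of 351, and reads were 75 bases long. Windows of 75 bases were taken from whole transcripts. For 51 members no window recurred in a transcript of another immunoglobulin gene, pseudogenes included. For 38 members over 20% of windows did (median 6.90%, highest 98.4% in Ighv1-71). Igkv14-126, Igkv2-137, Ighv1-39, Ighv3-6, Ighv12-3 and Igkv4-91 shared no window. Ighv11-2 shared 24.8% of its windows and was 98.9% identical to Ighv11-1, whose highest level was 0.46 TPM. Igkv17-121 shared 24.6% (nearest Igkv17-127, 97.5% identical), Ighv2-2 39.6% (Ighv2-4, 97.7%), Ighv1-26 16.2% (Ighv1-18, 96.9%) and Iglv1 9.46% (Iglv2, 96.9%). How the estimated abundances split reads between such near copies is uncertain.

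The heavy members span chr12:113588267-116000461 and all lie on the minus strand, and the lambda members span chr16:19085017-19260859. The kappa members span chr6:67555497-70704177, with 29 on the plus strand, the strand of the constant gene Igkc, and 48 on the minus strand. A kappa segment on the strand of Igkc is joined by deletion and one on the opposite strand by inversion. Plus-strand segments took 7.09% to 77.6% of kappa V TPM per library, with a median of 41.7%, so both orientations supplied RNA in every library. By family, the 43 Ighv1 members took a median of 61.0% of heavy V TPM and the 20 Igkv4 members 15.9% of kappa V TPM.

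V segments summed to 84.2 TPM in the lowest library (CYP19A1 12-month uninduced replicate 1) and to 1872 TPM in the highest (CYP19A1 18-month uninduced replicate 3), with a median of 572 TPM. Heavy segments took between 33.1% and 48.7% of this sum. V pseudogenes summed to at most 6.95 TPM in any library, and only 11 of 144 T cell receptor V rows met the members' minimum. The 14 genes listed for plasma cells differed widely in level. Jchain ran from 7.32 to 138 TPM and Xbp1 from 20.9 to 300 TPM. Mzb1 (0.23 to 8.94 TPM), Prdm1 (0.25 to 1.85) and Tnfrsf17 (0 to 1.64) were near the floor in some libraries. The B cell receptor partner Cd79a ran from 0.18 to 10.7 TPM. The recombinase genes Rag1 and Rag2 stayed at or below 0.05 TPM. Ribosomal RNA is given throughout by a stand-in, the summed TPM of ribosomal RNA rows and of Lars2. It took over 10% of TPM in 9 libraries, 7 of them CYP19A1, and reached 67.2% in CYP19A1 12-month uninduced replicate 1. Because TPM share 1 total, every other gene is lowered there. The sample titles are styled one way up to 18 months and another way from 24 months on, so a batch with that boundary and age cannot be told apart.

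Most members were present at a low level and rose high in a few libraries. Only Igkv10-96 and Igkv1-110 were at 1 TPM or more in all 48 libraries, 89 members were so in at least 24 libraries, and 14 in 3 to 6. The median member reached that level in 27 libraries. Its highest value was typically 13.0 times its median (median over members), 98 members reached at least 10 times their own median, and 68 reached 20 TPM. V segments at a steady level in all libraries were thus rare.

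By median level, Ighv1-26 was the highest heavy segment (0.78 TPM at the lowest, 13.5 at the median, 148 at the highest). Ighv9-3 (0.18, 5.58 and 29.3 TPM), Ighv1-53 (0.1, 5.35 and 132 TPM), Ighv1-9 (0.16, 4.67 and 192 TPM) and Ighv1-82 (0.08, 4.65 and 178 TPM) came next. These 4 were alike at the median and differed several-fold at their highest. Among kappa segments Igkv1-117 led (0.84, 12.2 and 183 TPM), before Igkv10-96 (1.07, 9.47 and 42.1 TPM), Igkv1-110 (1.13, 7.96 and 97.7 TPM), Igkv6-15 (0.32, 7.59 and 85.7 TPM) and Igkv14-126 (0, 5.71 and 137 TPM). Among lambda segments Iglv1 ran from 0.09 to 56.5 TPM with a median of 2.94 TPM, Iglv3 from 0.14 to 35.2 (median 1.91) and Iglv2 from 0 to 15.4 (median 0.85). The ranges of neighbours in these orders overlap almost wholly.

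Segment diversity was high in nearly all glands of 12 months and low in many older ones. It is given as the effective number of segments, the inverse Simpson index, which equals the number of equally abundant segments that would give the same concentration. The 12 libraries of 12 months ran from 3.97 to 72.0 effective segments, with a median of 61.5. The 12 libraries of 18 months ran from 7.34 to 51.7 (median 24.6), the 18 of 24 months from 4.22 to 70.9 (median 18.4) and the 6 of 30 months from 5.35 to 32.4 (median 7.96). At 12 months 11 of 12 libraries had 40 or more effective segments, against 3 of 12 at 18 months, 3 of 18 at 24 months and 0 of 6 at 30 months. These counts pool induced and uninduced glands. All glands of 30 months were induced for 18 months, so length of induction and age cannot be told apart in this series. The members were chosen from these values and age also coincides with the style of the titles, so this is a description without a test.

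Without induction, the Esr1 glands of 12 months had 59.9, 65.4 and 61.9 effective segments, those of 18 months 17.5, 51.7 and 21.4, and those of 24 months 6.51, 8.03 and 34.9. The CYP19A1 glands without induction had 48.7, 70.5 and 64.4 at 12 months, 44.8, 17.4 and 9.87 at 18 months, and 35.9, 63.4 and 36.3 at 24 months. In the Esr1 model every library of 18 and 24 months was below all 3 of 12 months. In the CYP19A1 model this held at 18 months, while at 24 months replicate 2 lay within the range of 12 months. The middle uninduced CYP19A1 library had 17.4 at 18 months and 36.3 at 24 months. The steady fall of the pooled medians was thus not seen there.

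After 1 week of induction the Esr1 glands had 3.97, 72.0 and 53.0 effective segments at 12 months and 27.8, 7.34 and 29.7 at 18 months, and the CYP19A1 glands 59.9, 67.1 and 61.0 at 12 months and 41.3, 28.2 and 13.8 at 18 months. At 24 months, 6 months of induction went with 17.1, 12.7 and 4.22 in Esr1 and 70.9, 13.0 and 13.3 in CYP19A1. After 12 months of induction the values were 15.3, 45.6 and 18.1 in Esr1 and 18.8, 21.4 and 19.96 in CYP19A1. At 30 months they were 6.61, 25.7 and 5.35 in Esr1 and 9.24, 6.67 and 32.4 in CYP19A1. Induced and uninduced groups of 1 age overlapped in each model except CYP19A1 at 24 months, where all 3 libraries of 12 months of induction lay below the 3 uninduced.

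Libraries stood apart from others of their age in both directions. Esr1 12-month 1-week replicate 1 had the lowest diversity of all, with Igkv12-41 at 715 TPM, 43.4% of V TPM, and Ighv3-6 at 411 TPM. CYP19A1 24-month 6-month replicate 1 had 70.9 effective segments at a V sum of only 99.6 TPM, with 32 segments at 1 TPM or more. The number of segments detected follows the sum as well as the diversity: it was lowest, 24, in the library with 84.2 TPM, and highest, 140, in Esr1 18-month 1-week replicate 1 with 1328 TPM.

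**Figure D1:**
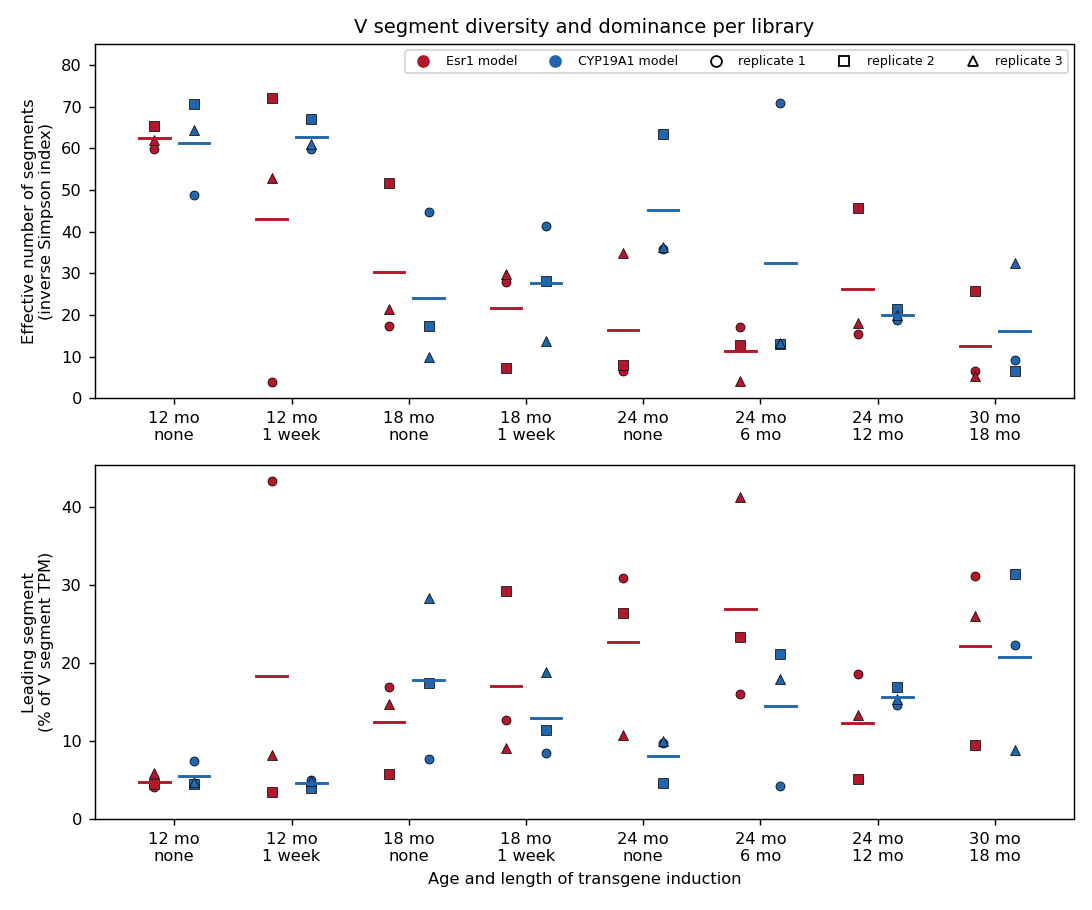
Effective number of V segments (upper panel) and share of V segment TPM taken by the leading segment in percent (lower panel) in each library, by age and length of induction (x axis). Points are libraries with the symbol for the replicate number, red for Esr1 and blue for CYP19A1, and bars are means of 3 libraries; 11 of 12 libraries of 12 months lie at 40 or more effective segments.

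The share of the leading segment mirrored the effective number. Over induced and uninduced libraries together, its median was 4.84% at 12 months, 13.8% at 18 months, 15.7% at 24 months and 24.2% at 30 months. A single segment took at least 15% of V TPM in 1 of 12, 5 of 12, 10 of 18 and 4 of 6 libraries, in 20 of 48 overall (11 Esr1 and 9 CYP19A1). A kappa segment led in 36 libraries and a heavy one in 12. Within the heavy locus 1 segment took at least 50% of TPM in 7 libraries, 6 of them Esr1, and within the kappa locus in 4 libraries, all Esr1. Neither difference between models was tested.

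The leading segments differed from library to library. Altogether 24 segments led the 48 libraries, and 11 led 2 or more. Igkv14-126 led 7 (5 Esr1 and 2 CYP19A1), Ighv1-26 led 5 (all CYP19A1), Igkv1-117 led 5 (1 and 4), and Igkv12-41 and Igkv17-121 led 3 each (2 and 1). Igkv1-110, Igkv14-111, Igkv2-137, Igkv4-63, Igkv6-15 and Igkv8-24 led 2 each. Leaders of single libraries that took 15% or more were Ighv1-42 (30.9%), Ighv1-80 (26.0%) and Ighv1-78 (16.1%) in Esr1 glands, and Igkv19-93 (31.4%), Igkv6-32 (28.3%), Ighv1-43 (22.3%) and Igkv12-44 (21.1%) in CYP19A1 glands. No segment led more than 7 of the 48 libraries.

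**Figure D2:**
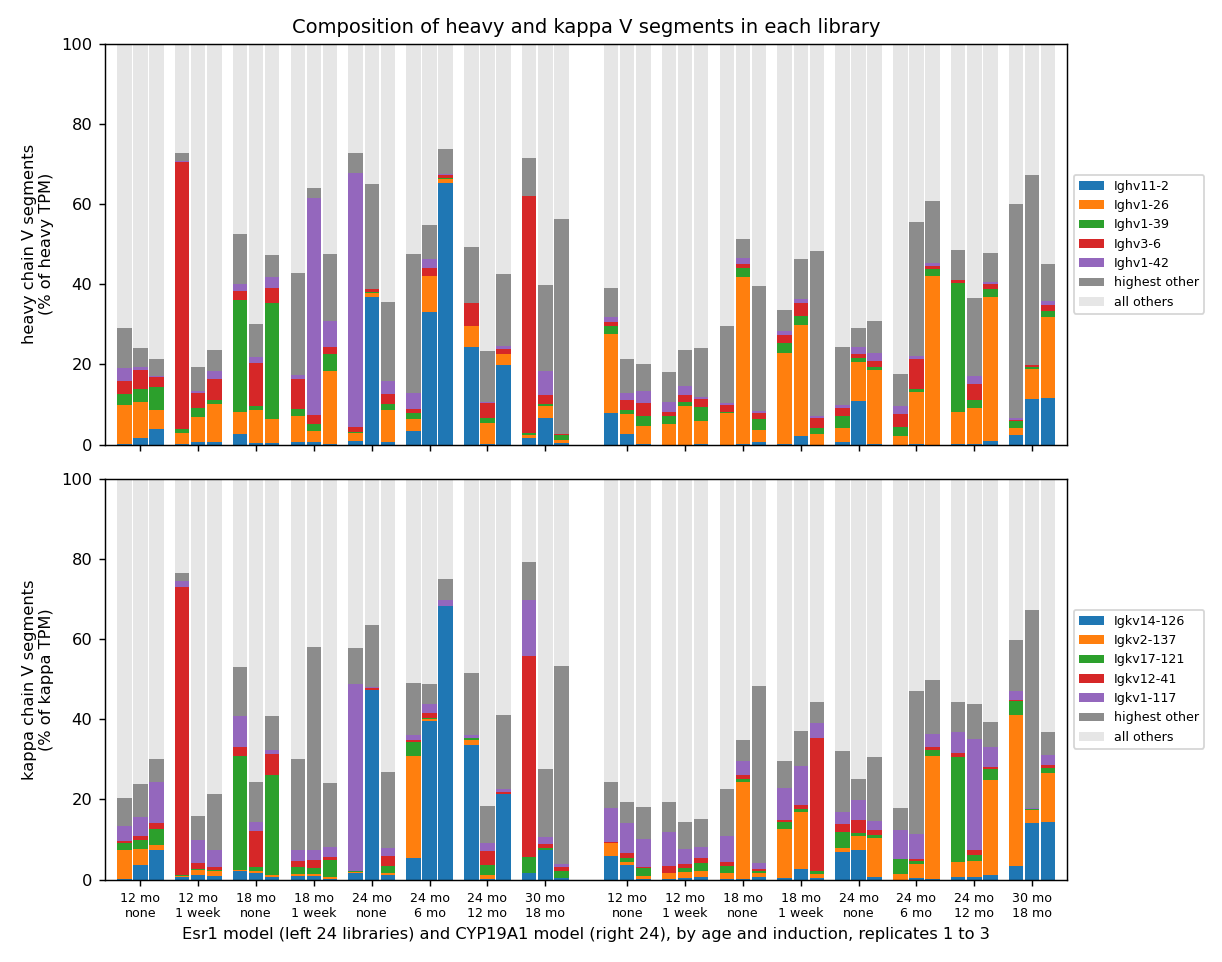
Percent of heavy (upper) and kappa (lower) V segment TPM taken by 5 named segments each, by the highest other segment (dark grey) and by all others (light grey) in each of the 48 libraries (bars; Esr1 left, CYP19A1 right). The Ighv11-2 and Igkv14-126 blocks stand together in Esr1 libraries of 24 months, and the Ighv1-26 and Igkv2-137 blocks in CYP19A1 libraries of 18 months and later.

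Several leading heavy and kappa segments came back as the same pair in different libraries. The heavy and kappa leaders formed 34 distinct pairs, of which 6 occurred in 2 or more libraries and covered 20 libraries. Ighv11-2 with Igkv14-126 occurred in 6, all of 24 months (5 Esr1 and 1 CYP19A1), and these segments are known to encode a B-1 cell receptor for phosphatidylcholine. Ighv1-26 with Igkv2-137 occurred in 5, all CYP19A1 of 18 or 24 months. Ighv1-39 with Igkv17-121 occurred in 3, and Ighv3-6 with Igkv12-41, Ighv1-26 with Igkv1-110 and Ighv1-26 with Igkv6-15 in 2 each. Bulk RNA does not show which heavy and light chains share a cell.

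Ighv11-2 was at 77.4 TPM in Esr1 24-month uninduced replicate 2, 73.7 and 74.8 TPM in replicates 2 and 3 after 6 months of induction, and 27.6 and 42.8 TPM in replicates 1 and 3 after 12 months. Igkv14-126 in the same libraries was at 129, 137, 123, 49.4 and 82.3 TPM. The remaining 4 Esr1 libraries of 24 months had Ighv11-2 at 3.42, 1.41, 9.4 and 0.07 TPM and Igkv14-126 at 6.2, 3.53, 16.3 and 0.35 TPM. High and low libraries therefore occurred within each group of 24 months, with and without induction. In CYP19A1 glands the pair was highest in 24-month uninduced replicate 2 (27.4 and 33.2 TPM) and in 30-month replicates 2 (20.7 and 46.4 TPM) and 3 (14.5 and 29.9 TPM). All 7 libraries with Ighv11-2 at 20 TPM or more had Igkv14-126 at 20 TPM or more, and 9 libraries had Igkv14-126 at that level. One of these, CYP19A1 24-month uninduced replicate 1, had Igkv14-126 at 23.2 TPM with Ighv11-2 at 1.0 TPM. In the 14 libraries with Ighv11-2 at 5 TPM or more, the kappa partner was between 1.21 and 2.78 times as abundant.

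Across the 48 libraries, those led by the pair included, its 2 segments varied together. Of 77 kappa members, Igkv14-126 had the highest correlation with Ighv11-2 across the 48 libraries, with Pearson's r of 0.94 on log2(TPM + 1), Spearman's rho of 0.92 and r of 0.93 without the 2 libraries farthest from the median of Ighv11-2. The next kappa member, Igkv12-46, had r of 0.26. Igkv17-121 likewise ranked first for Ighv1-39 (0.86, next 0.57), Igkv4-91 for Ighv12-3 (0.81, next 0.41) and Igkv12-41 for Ighv3-6 (0.78, next 0.69). For Ighv1-26, Igkv10-96 and Igkv2-137 were level at 0.68. The pairs were picked from these levels and the libraries share the total immunoglobulin content of each gland, so these values are a description and carry no p.

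**Figure D3:**
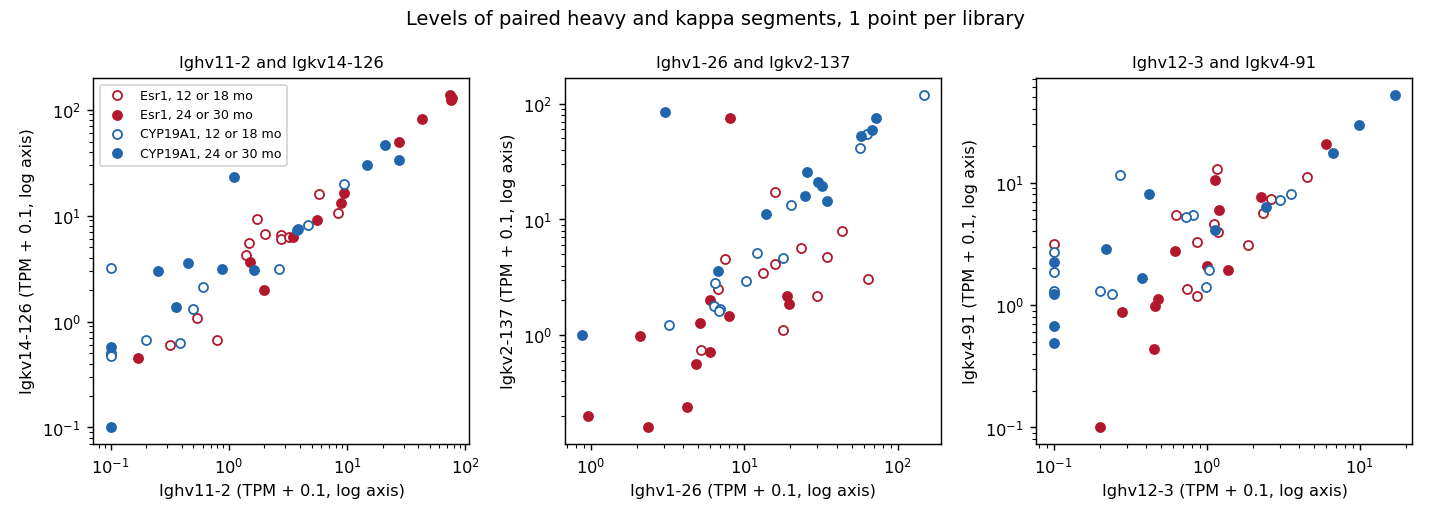
Levels of a kappa segment against its heavy partner (TPM + 0.1, both axes logarithmic), 1 point per library, red for Esr1 and blue for CYP19A1, filled at 24 or 30 months. For Ighv11-2 and Igkv14-126 both levels are highest in Esr1 libraries, and a few CYP19A1 libraries lie well above the rest in Igkv14-126 for their Ighv11-2; for Ighv1-26 and Igkv2-137 the 8 libraries with both at 20 TPM or more are all CYP19A1.

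Ighv1-26 with Igkv2-137 stood at 148 and 118 TPM in CYP19A1 18-month uninduced replicate 2, at 62.5 and 54.4 TPM and 57.0 and 41.2 TPM in 18-month 1-week replicates 1 and 2, at 71.7 and 75.7 TPM in 24-month 6-month replicate 3 and at 67.9 and 58.8 TPM in 24-month 12-month replicate 3. Both reached 20 TPM in 8 of 24 CYP19A1 libraries and in 0 of 24 Esr1 libraries. Igkv2-137 was not tied to 1 heavy segment: it was at 75.7 TPM in Esr1 24-month 6-month replicate 1, where Ighv1-78 led the heavy locus, and at 84.1 TPM in CYP19A1 30-month replicate 1, where Ighv1-43 led.

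Ighv1-39 with Igkv17-121 led in Esr1 18-month uninduced replicates 1 (91.2 and 139 TPM) and 3 (24.7 and 32.8 TPM) and in CYP19A1 24-month 12-month replicate 1 (130 and 135 TPM). Ighv3-6 with Igkv12-41 led in Esr1 12-month 1-week replicate 1 (411 and 715 TPM) and Esr1 30-month replicate 1 (182 and 289 TPM). Igkv12-41 was at 205 TPM in CYP19A1 18-month 1-week replicate 3, where Ighv1-9 (192 TPM) led the heavy locus. Ighv12-3 with Igkv4-91, the other pair known from B-1 cells, was highest in CYP19A1 24-month uninduced replicates 1 (16.98 and 51.8 TPM) and 3 (9.79 and 29.6 TPM). In the 4 libraries with Ighv12-3 at 5 TPM or more, Igkv4-91 was between 2.65 and 3.51 times as abundant.

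None of 12 constant genes passed the test in any age comparison of either model. Their levels by age are given as a description, over induced and uninduced libraries together. Ighm, the IgM heavy chain gene, was above Igha, the IgA heavy chain gene, in 3 of 12 libraries at 12 months, 8 of 12 at 18 months, 18 of 18 at 24 months and 6 of 6 at 30 months. The median Ighm level was 77.8, 247, 268 and 171 TPM at 12, 18, 24 and 30 months. That of Igha was 166, 157, 63.6 and 41.25 TPM. In the Esr1 24-month libraries led by Igkv14-126, Ighm was at 349, 328, 228, 169 and 293 TPM, while Igha was at 7.13, 62.9, 15.9, 5.76 and 30.6 TPM. Esr1 24-month uninduced replicate 1, led by Ighv1-42, had Ighm at 498 TPM and Igha at 5.28 TPM. Esr1 12-month 1-week replicate 1, led by Igkv12-41, was the only Esr1 library of 12 months with Ighm (617 TPM) above Igha (257 TPM). None of the 12 constant genes passed the test in any induction comparison, nor did any of 5 further B-1 genes (Bhlhe41, Zbtb32, Fcrl5, Spn, Cd5) chosen after seeing the pairs.

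**Figure D4:**
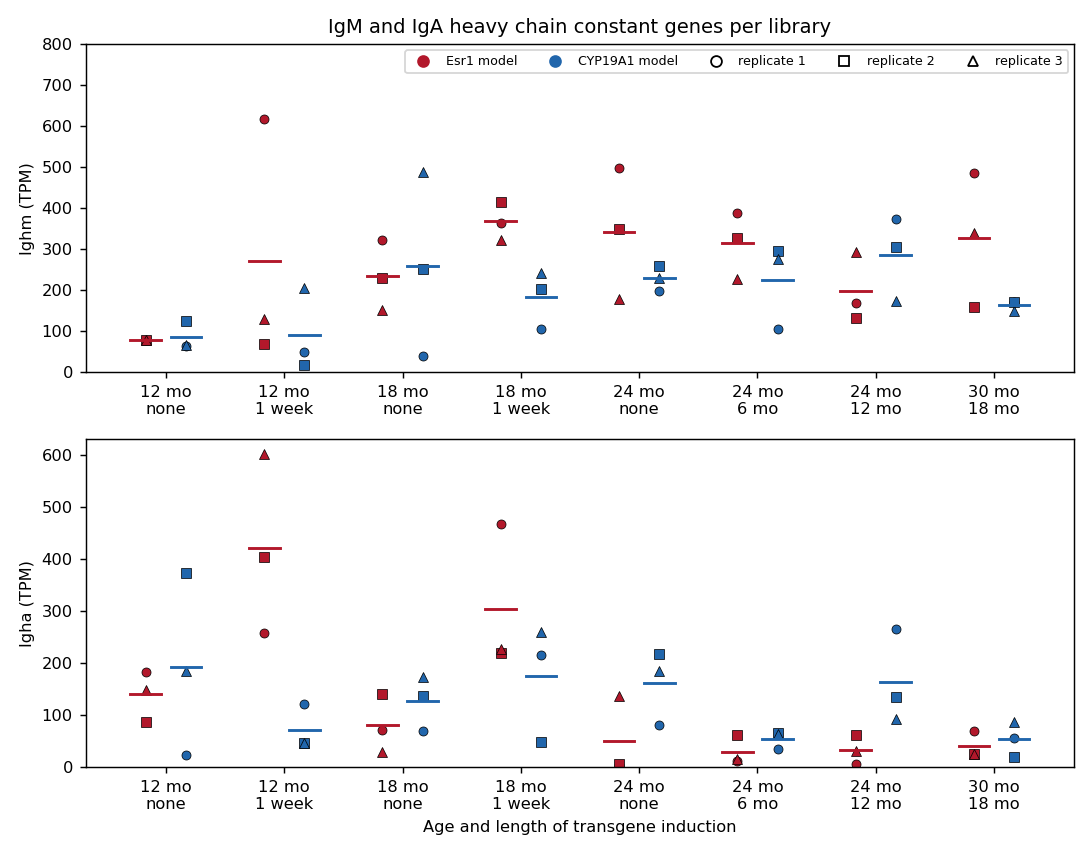
Levels of Ighm (upper) and Igha (lower) in TPM in each library, by age and length of induction, red for Esr1 and blue for CYP19A1, bars at means of 3 libraries. Igha is above Ighm in 9 of 12 libraries of 12 months and in none of 24 or 30 months.

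Differences between groups were tested on log2(TPM + 1) with limma across all 20209 genes. The threshold was a Benjamini-Hochberg adjusted p of 0.05, and changes are on that scale, which understates those of scarce segments. No segment passed in any induction comparison. The 4 induction comparisons of the Esr1 model had 0 of 160 members called, against 0.0099%, 0%, 0% and 0.00495% of all genes (1 week at 12 and at 18 months, then 6 and 12 months at 24 months). Those of the CYP19A1 model had 0 called, against 0%, 0%, 0% and 0.0198%. At an unadjusted p under 0.05 the Esr1 counts, in the same order, were 30 members (5.51% of all genes), 30 (1.25%), 6 (1.16%) and 10 (1.38%). The CYP19A1 counts were 4 (6.78%), 4 (1.46%), 34 (1.29%) and 10 (1.13%). Tested as an interaction, the response of 1 model against that of the other had 0 members called for 1 week and 0 for long induction (0% of all genes each, limma), with 42 (6.42% of all genes) and 12 (1.17%) at an unadjusted p under 0.05.

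Groups of 3 did nonetheless separate for many segments at once. In Esr1 glands of 12 months, 49 of 160 members were higher in all 3 libraries of 1 week than in all 3 without induction, against 10.1% of all genes, and 0 were lower, against 1.88%. The summed V level there was 1648, 926 and 1187 TPM against 412, 206 and 376 TPM, and Igha was at 257, 404 and 600 TPM against 183, 86.9 and 149 TPM. The median change over members was 0.87 log2 units, beside 0.22 over all genes. Marker lists of other tissues also differed there, though none of their genes passed: the median change was -2.45 for 8 skeletal muscle genes, 0.76 for 9 luminal and 0.79 for 7 basal epithelial genes, 0.52 for 12 T cell genes and 0.51 for 14 plasma cell genes. The median change was 0.16 for 14 B cell genes, -0.21 for 7 white adipocyte genes and 1.16 for 12 immunoglobulin constant genes. The part of these lists in the V segment levels was not tested. At 24 months in the CYP19A1 model, 53 members were lower in all 3 glands induced for 6 months (2.11% of all genes) and 0 higher (2.2%), with a median change of -0.74 beside -0.01 over all genes. The summed V level was 99.6, 668 and 420 TPM against 528, 715 and 856 TPM without induction, so the sums overlap. None of these segments passed the test. In CYP19A1 after 1 week at 12 months, 1 library decided the count: without uninduced replicate 1, 23 members were called lower. Ribosomal RNA took 43.7%, 49.8% and 36.7% of TPM in the 3 induced libraries there. It took 0.12% and 22.2% in the uninduced libraries that remained, and its part was not tested. The share of all genes called in that fit is not given here, so the 23 are no result about V segments alone.

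The other comparisons are given here as higher and lower counts of 160 members, each with the share of all genes. After 1 week at 18 months they were 18 (4.26%) and 1 (0.5%) in Esr1 and 5 (2.12%) and 4 (1.66%) in CYP19A1, and after 1 week at 12 months in CYP19A1 0 (0.158%) and 5 (1.36%). At 24 months they were 4 (1.31%) and 4 (0.846%) after 6 months of Esr1, 1 (5.42%) and 7 (0.762%) after 12 months of Esr1, and 4 (6.78%) and 10 (1.14%) after 12 months of CYP19A1. Induction thus gave its 2 highest counts in Esr1 at 1 week, 12 months of age, and in CYP19A1 at 6 months, and the direction was opposite. With age from 12 months, uninduced Esr1 glands had 4 (1.53%) and 3 (4.17%) at 18 months and 6 (3.86%) and 10 (8.61%) at 24 months, and CYP19A1 glands 4 (1.52%) and 0 (0.242%) at 18 months and 12 (9.31%) and 1 (0.381%) at 24 months. At 30 against 24 months of age (18 against 12 months of induction), 4 (0.638%) were higher and 15 (35.6%) lower in Esr1, and 2 (0.757%) and 48 (21.6%) in CYP19A1. In the Esr1 model that lower share of members is under the background.

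With age, 0 members were called in the Esr1 model (18 against 12 months, 0% of all genes; 24 against 12 months, 0.574%; 30 against 24 months of long induction, 0.139%; limma). At an unadjusted p under 0.05 there were 9 (2.76% of all genes), 11 (7.68%) and 16 (15.9%). In the CYP19A1 model 0 were called at 18 against 12 months (0.0099% of all genes) and 0 at 30 against 24 months (0%, limma), with 12 (5.61% of all genes) and 31 (1.64%) at an unadjusted p under 0.05. Between 12 and 24 months 2 of 160 rose there, against 4.24% of all genes, a share below the background, as were the 11 at an unadjusted p under 0.05 (14.7% of all genes). Ighv12-3 was at 0, 0.72 and 0.94 TPM at 12 months and 16.98, 1.04 and 9.79 TPM at 24 months, without overlap (log2 change 2.30, SE 0.62, limma adjusted p = 0.0225). Ighv8-8 was at 0.15, 3.06 and 2.81 TPM and 7.66, 5.47 and 11.8 TPM, also without overlap (1.78, SE 0.53, limma adjusted p = 0.0450). All 8 skeletal muscle genes rose in the same comparison, with a median log2 change of 3.97, and ribosomal RNA was over 10% in 3 of the 6 libraries. Without those libraries neither segment passed (limma adjusted p = 0.377 and 0.554), and the part of muscle content was not tested.

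A few segments differed between the models. Among uninduced glands, 11 of 160 members passed, against 2.95% of all genes: 10 were higher in CYP19A1 and 1, Iglv1, was lower. Under long induction (6, 12 and 18 months), 6 members passed, against 4.15% of all genes, 4 higher and 2 lower in CYP19A1, so the share of members was not above the background. At an unadjusted p under 0.05 there were 37 members without induction (17.7% of all genes) and 32 under long induction (17.6%). Under long induction, a median-of-ratios rescaling gave a split of 4 higher and 4 lower. The share of all genes in that fit is not given here, so the split is no result about V segments alone. The median over members was 0.40 and 0.22 log2 units, beside -0.10 and 0.12 over all genes. Both contrasts average 3 groups per model and the groups of both models overlapped for every segment that passed.

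Iglv1, the highest lambda segment in 33 of 48 libraries, was lower in CYP19A1 without induction and under long induction. Its median share of lambda V TPM was 66.6% in Esr1, where Iglv3 had 11.9%. In CYP19A1 the 2 were level at 40.5% and 40.9%. Uninduced Esr1 glands had 1.67 TPM at the lowest, 9.6 at the median and 21.6 at the highest, and uninduced CYP19A1 glands 0.27, 1.44 and 3.9 (log2 change -1.77, SE 0.34, limma adjusted p = 0.000962, n = 9 each). Under long induction the values were 2.38, 6.23 and 11.9 TPM against 0.52, 2.53 and 3.46 (-1.19, SE 0.34, limma adjusted p = 0.0365), a call lost in 10 of 18 fits that left out 1 library. Glands of 1 week, which entered neither contrast, had 13.1 to 56.5 TPM in Esr1 and 0.09 to 2.28 in CYP19A1, without overlap. Over all conditions 19 of 24 Esr1 libraries were above the highest CYP19A1 library. The constant gene Iglc1, which Iglv1 joins to most often, was also lower in CYP19A1 (-2.19, limma adjusted p = 0.000102 uninduced; -1.51, adjusted p = 0.00818 long-induced).

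As a share of light chain V TPM, lambda took 0.67% to 10.98% in Esr1 and 0.38% to 2.08% in CYP19A1, and 21 of 24 Esr1 libraries exceeded every CYP19A1 library. Iglv2 and Iglv3 did not pass: uninduced medians were 1.7 and 0.8 TPM for Iglv2 and 1.38 and 2.06 TPM for Iglv3 (Esr1, then CYP19A1). Iglv3 reached 35.2 TPM in Esr1 30-month replicate 1 and stayed under 10 TPM in the other 47 libraries. Of 8 lymph node stroma genes tested, Glycam1 and Ccl21a were lower in CYP19A1 in both contrasts and the other 6 did not pass, with list medians of -0.23 and -0.17. Ccl19 (median 2.74 TPM against 2.42 in Esr1) and Cxcl13 (1.76 against 1.5) were not lower. The summed level of the list, up to 8204 TPM of it from Glycam1, ran from 35.7 to 8237 TPM in Esr1 and from 8.03 to 873 TPM in CYP19A1. None of 14 plasma cell and 14 B cell genes passed in either contrast. The part of lymph node content was not tested.

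**Figure D5:**
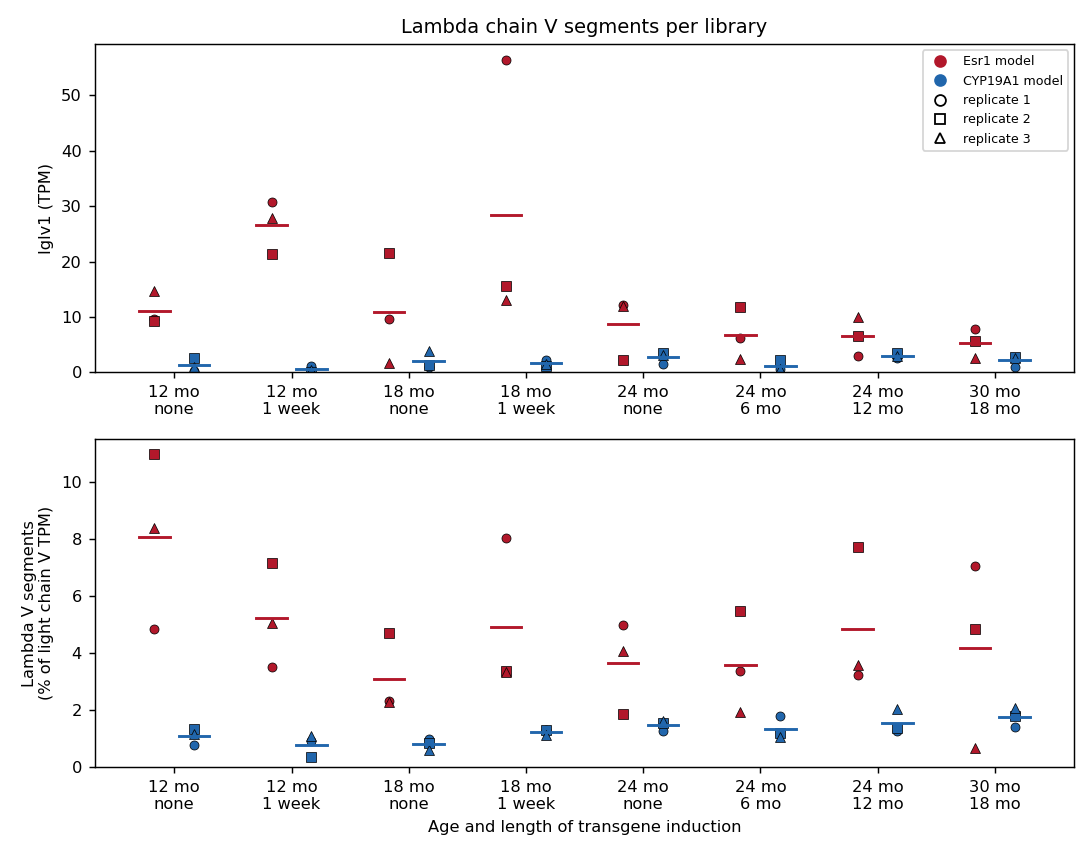
Level of Iglv1 in TPM (upper) and share of light chain V TPM taken by the 3 lambda segments in percent (lower) in each library, by age and length of induction, red for Esr1 and blue for CYP19A1, bars at means of 3 libraries. In the lower panel 21 of 24 Esr1 libraries lie above the highest CYP19A1 library at 2.08%.

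The 10 segments higher in uninduced CYP19A1 glands were Igkv3-7, Ighv1-81, Ighv9-3, Igkv4-74, Igkv15-103, Igkv3-12, Igkv3-10, Ighv8-8, Ighv1-85 and Ighv1-7, with log2 changes from 0.84 to 1.56. Apart from Ighv9-3 and Ighv8-8 they are named after their values were seen, since their groups overlap. Ighv9-3 was at 0.18, 3.62 and 6.17 TPM (lowest, median, highest of 9) in Esr1 and 0.92, 13.5 and 29.3 TPM in CYP19A1 (1.44, SE 0.37, limma adjusted p = 0.0222). Igkv4-74 was at 0.1, 0.49 and 0.79 TPM against 0.5, 2.79 and 9.99 TPM (1.38, SE 0.28, adjusted p = 0.00156), and it was the only one of the 10 to pass in all 18 fits that left out 1 library and all 7 other settings. Igkv3-7 was at 0, 1.23 and 3.67 TPM against 0.85, 3.89 and 99.5 TPM, the last in CYP19A1 18-month uninduced replicate 3. Of the constant genes Ighg1 (IgG1) and Ighe (IgE) were also higher in CYP19A1 here, Ighg1 by 1.90 log2 units. The count rested on the libraries used: without those over 10% ribosomal RNA 31 members passed (30 higher) when 12.7% of all genes did, and with only the compared groups fitted 3 passed (1.04%). For long induction the same fits gave 5 members (4.03%) and 10 (7.89%).

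Under long induction Ighv2-2 and Igkv2-137 were higher in CYP19A1 in every fit tried. Ighv2-2 was at 0, 0.44 and 1.92 TPM in Esr1 and 0.74, 7.4 and 26.5 TPM in CYP19A1 (2.54, SE 0.45, limma adjusted p = 0.000198). Igkv2-137 was at 0.1, 0.88 and 75.7 TPM against 0.9, 20.9 and 84.1 TPM (3.08, SE 0.66, adjusted p = 0.00267); 8 of 9 Esr1 libraries were at or below 1.91 TPM. Igkv10-96 (1.61, adjusted p = 0.0198) and Ighv1-81 (1.27, adjusted p = 0.0453) were higher as well. Ighv2-2 and Ighv1-81 are named after their values were seen.

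Ighv11-2 was lower in long-induced CYP19A1 glands (0, 0.35 and 20.7 TPM against 0.07, 9.4 and 74.8 TPM in Esr1; -2.31, SE 0.65, limma adjusted p = 0.0322). Its call was lost in 10 of 18 fits that left out 1 library and without the libraries over 10% ribosomal RNA (adjusted p = 0.0845). Its partner Igkv14-126, at 0, 2.95 and 46.4 TPM against 0.35, 16.3 and 137 TPM, did not pass. Of the constant genes, Ighg1, Ighg2b and Ighg2c, for IgG subclasses, were higher in CYP19A1 (2.38, 2.12 and 1.51 log2 units), and Ighm did not pass. Whether the difference between the models changed with induction was tested above, with 0 segments called.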

How the data were processed

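RNA of 48 mammary gland libraries was measured as TPM per gene. The deposited values are TPM that the authors made from single reads of 75 bases after ribosomal RNA depletion, per the labels. The submitters' processing notes name RSEM 1.3.1, STAR 2.7.9a, Trim Galore 0.6.5, FastQC 0.11.9 and build mm10, without their settings. TPM keep no depth, so no counting interval is given. The annotation release is not given in the sources used here; all 160 member identifiers matched GENCODE M21 with their version, which supplied positions and sequences. The treatment of reads shared by near-identical segments changes their levels.

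Genes at 1 TPM or more in 3 libraries were fitted as log2(TPM + 1) with limma 3.58.1 (trend, two-sided, R 4.3.3), 1 mean for each of 16 groups over all 48 libraries, 18 contrasts, Benjamini-Hochberg adjusted over 20209 genes. The fit was tested on simulated data. Shares, effective numbers and sequence windows were computed in Python 3.11.15 over members. Named segments were the 5 highest by median TPM per locus, leaders of 2 or more libraries or of 15% or more, members that passed where 5 or fewer did, and otherwise those that also separated the groups, and up to 4 genes per further list. Those 13 lists (immunoglobulin constant regions, plasma cells, B cells, antibody gene recombination and modification, lymph node stroma, T cells, luminal epithelium, basal epithelium, white adipocytes, skeletal muscle, salivary gland, polymeric immunoglobulin transport and homing, B-1 cells) were described by counts. Members, lists and tests were chosen with earlier results of these data known. Alternatives changed the pseudocount, filter, scaling, groups fitted, replicate block and libraries. Same-numbered samples correlated positively in every pair after 1 week of CYP19A1 at 18 months (0.091 to 0.348). They did so too in CYP19A1 at 30 against 24 months (0.106 to 0.251), where the block left 0 segments called.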

Additional observations from a re-analysis of the deposited data

Results flagged for a closer look

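Of the V segments outside the members' rule, Ighv2-6-8 stood at 56.5 TPM in Esr1 30-month replicate 1 and at no more than 0.83 TPM in any other library, uninduced ones included. It took 5.71% of all V gene TPM there. Ighv1-49 stood at 6.03 TPM in CYP19A1 18-month 1-week replicate 1, against at most 1.39 TPM in an uninduced library. Only segments highest in an induced library were flagged. Single high values occurred in uninduced libraries too. Igkv6-29 was at 11.64 TPM in CYP19A1 18-month replicate 2 and Igkv10-95 at 11.24 TPM in Esr1 12-month replicate 3. Ighv3-4 was at 10.43 TPM in CYP19A1 24-month replicate 2. The next highest library had 0.43, 0.61 and 0.81 TPM.

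For 4 members the induced libraries lay wholly on opposite sides of the uninduced ones in the 2 models; these differences were not tested. They were found over 7 contrasts. Igkv4-50 differed by 1.81 TPM (induced minus uninduced means of 3) in Esr1 and by -3.29 TPM in CYP19A1 after 1 week at 12 months, where 0.0693% of all genes separated in opposite directions. After 6 months at 24 months Ighv1-50 differed by 1.63 and -1.17 TPM and Ighv3-1 by 0.447 and -0.447 TPM (0.0643% of all genes). After 12 months at 24 months Ighv13-2 differed by -0.96 and 0.6 TPM (0.094% of all genes), with all 3 uninduced CYP19A1 libraries listed at 0. In the other 4 contrasts 0 members did so, against 0.0445% to 0.094% of all genes. All groups held 3 libraries, too few for a check of single outlying libraries.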

How the results depend on the processing

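Depth is unknown in TPM, levels near 1 TPM are imprecise, and groups of 3 limit every comparison. For CYP19A1 against Esr1 without induction the 11 segments called became 5 with no filter, 20 and 19 with median-of-ratios and protein-coding rescaling, 3 with only the compared groups and 31 without libraries over 10% ribosomal RNA, a setting added after seeing the data; leaving out 1 library gave 2 (without Esr1 24-month uninduced replicate 2) to 17 (without CYP19A1 12-month uninduced replicate 1). Under long induction the 6 became 3 with no filter and 10 with only the compared groups, and 2 (without CYP19A1 24-month 6-month replicate 3) to 7 with 1 library left out. For CYP19A1 at 24 against 12 months the 2 became 1 with no filter and 0 with a pseudocount of 0.1, median-of-ratios rescaling, only the compared groups, or without the libraries over 10% ribosomal RNA, and 0 to 7 with 1 library left out. The cause was not tested. Counts of 0 became 1 with no filter (Esr1, 1 week at 18 months), with only the compared groups (Esr1 at 24 against 12 months) and without the ribosomal RNA libraries (Esr1 at 30 against 24 months). Leaving out 1 library turned 0 into 0 to 23 for CYP19A1 after 1 week at 12 months, 0 to 45 for the model difference in that response (both highest without CYP19A1 12-month uninduced replicate 1) and 0 to 1 for Esr1 after 1 week at 12 and at 18 months, Esr1 at 30 against 24 months, CYP19A1 after 6 months and CYP19A1 at 30 against 24 months. Calls over all genes moved with the setting as well. Without the libraries over 10% ribosomal RNA, 2569 of 20209 genes were called between the models uninduced and 815 under long induction. For the filter, rescaling, replicate block and 1-library-out fits the share of all genes is not given here. Those counts are therefore no result about V segments alone. The 19 changes of single segments kept their direction in every fit.

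Median-of-ratios rescaling moved the median change over all genes from 0.22 to 0.01 log2 units for Esr1 after 1 week at 12 months and from -0.32 to 0.02 for CYP19A1.

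2 comparisons could not be run without the libraries over 10% ribosomal RNA, since no library was left in a group: CYP19A1 after 1 week at 12 months and the model difference in that response.

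Same-numbered libraries did not deviate together overall (mean correlation 0.0057, against -0.0030 for other numbers). With the replicate block 9 segments passed between models without induction, 5 under long induction and 2 for CYP19A1 at 24 against 12 months.

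The median library had 85.5 segments at 1 TPM, 114.5 at 0.5 TPM and 50.0 at 2 TPM. The median effective number of 26.8 became 57.0 as the exponential of the Shannon entropy and 8.66 summed by family, and the median leading share of 12.1% became 26.1% for 3 leading segments and 26.5% by family.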

Other observations

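Of 8 genes of antibody transport and homing, 2 passed between the models without induction (2.95% of all genes did), with a list median of -0.15. In CYP19A1 Pigr, the receptor that carries IgA across epithelium, was lower (log2 change -2.27, limma adjusted p = 0.0365) and Tnfsf13, the plasma cell survival factor APRIL, likewise (-1.22, limma adjusted p = 0.0348). Over all libraries, Ccl28 and Ccr10 had higher medians in CYP19A1 (0.46 against 0.26 TPM and 1.01 against 0.72 TPM). Under long induction neither passed, and Ccr10, a homing receptor of IgA plasma cells, was higher (0.36, limma adjusted p = 0.0316). Glycam1, a product of lymph node venules that mammary epithelium also makes, was lower without induction and under long induction (-4.84 and -5.27, limma adjusted p = 0.0149 and 0.00492). Ccl21a, a chemokine of lymph node stroma, was lower as well (-1.58 and -1.43, limma adjusted p = 0.00102 and 0.00267).

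Of the further lists, 0 of 12 T cell, 0 of 9 luminal epithelium, 0 of 7 basal epithelium, 0 of 7 white adipocyte, 0 of 4 salivary gland, 0 of 8 skeletal muscle, 0 of 5 B-1 and 0 of 2 antibody gene recombination and modification genes passed between the models in either contrast (limma). Skeletal muscle genes summed to between 156 and 38724 TPM per library, and white adipocyte genes to between 1210.2 and 6769 TPM.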
